A study of Mus musculus with 2 samples.

Results

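The 10 genes of MHC class II presentation were followed through single-cell RNA-sequencing of mouse bone marrow cells that had grown for 5 days with 40 ng/mL of the growth factor GM-CSF, which drives granulocyte and macrophage output. They were chosen by symbol, and all 10 were among the 47729 genes of the files: the antigen-presenting chains H2-Aa, H2-Ab1 and H2-Eb1, the invariant chain Cd74, the regulator Ciita, the peptide exchange genes H2-DMa, H2-DMb1 and H2-DMb2, and their modulators H2-Oa and H2-Ob. The study set out to describe the myeloid suppressor cells that arise beside human mesenchymal stromal cells (MSC). Both groups were femur marrow of C57BL/6NCrljOri mice of the H-2b haplotype, with 1 library each and the same GM-CSF dose in both.

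The coculture library came from CD11bmidLy6Cmid cells of marrow grown beside human MSC, which sat in inserts with 0.4 µm pores at 1 MSC to 5 marrow cells after 24 h of their own incubation. The library without coculture came from CD11bhiLy6Chi cells of marrow grown with GM-CSF alone. The protocols name DMEM for the coculture and RPMI1640 for marrow culture. Coculture, sort gate, named medium and library therefore changed together and cannot be told apart, and whether marrow was pooled from several mice is not stated. With 1 library per group there was no replicate and no test, so every interval below is an exact 95% interval for counting error only.

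Cells were barcodes that had 500 genes or more and no more than 10% of their UMIs (unique molecular identifiers, 1 per captured transcript) from mitochondrial genes, which left 3005 of 3134 in the coculture library and 1817 of 2180 without coculture. The kept cells held 29089241 UMIs in the coculture library and 27784963 without coculture, with medians of 6031 and 7016 UMIs per cell. The libraries shared 4 barcodes, 2 of them among kept cells. Clustering without the class II genes gave 19 clusters, named "-like" from marker sets. The labels call all cells bone marrow cells, and the sorts held different ones. B lineage-like cells were 30.3% of the coculture library and 0.0550% of the other, mature dendritic cell-like cells 9.72% and 0.220%, and neutrophil-like cells 14.3% and 57.9%. At these settings macrophage-like cells were 0 of the 3005 coculture cells and 31.5% (573 cells) of those without coculture. The 0 allows up to 0.0998% by counting error alone, and it depended on the clustering and naming. C1qa-led macrophage-like clusters held 91 coculture cells with class II genes among the clustering genes and 136 under a stricter filter. At clustering resolution 0.4 or 1.2, or without the 5% of cells with most UMIs, macrophage-like clusters held 0 coculture cells.

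MHC class II molecules are surface pairs of an alpha and a beta chain that show peptides from the endosome to CD4 T cells. In H-2b mice the pair is built from H2-Aa and H2-Ab1, while the second pair is missing because its alpha chain gene, H2-Ea-ps, carries a deletion over its start, so that the product of H2-Eb1 has no partner. Cd74 fills the groove during transport, H2-DM (H2-DMa with a DMb chain) exchanges its remnant for peptide, and H2-DO (H2-Oa with H2-Ob) restrains H2-DM, best known in B cells. Ciita, the class II transactivator, binds no DNA itself and works through factors seated on paired promoter elements called the X and Y boxes. B cells, dendritic cells and activated macrophages are the classical presenting cells.

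Class II promoters are known for the X and Y elements through which Ciita acts, and stretches of 6 are shown because the levels described next separate genes with near-identical promoters. RefSeq promoters (GRCm38.p6, 300 bases each) were used for 7 of the 10 genes. H2-Ab1 and Ciita had no entry, and the promoter of Cd74 was left out of the search. The letters AGNAAC (core of the X box) and ATTGG (core of the Y box, a CCAAT element read from the other strand) were searched on both strands, and the motifs do not overlap each other. AGNAAC occurred in 48.1% and ATTGG in 37.4% of 32851 promoters, while both in this order, 20 to 45 bases apart from start to start on 1 strand, occurred in 1.45%. The ordered pair was found for 4 of the 7 genes. The stretches are 80 bases each, on the strand of the gene and aligned on ATTGG, with both cores of a found pair, or ATTGG alone, in capitals.
H2-Oa: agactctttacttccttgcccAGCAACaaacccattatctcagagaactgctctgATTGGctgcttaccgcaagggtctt
H2-Ob: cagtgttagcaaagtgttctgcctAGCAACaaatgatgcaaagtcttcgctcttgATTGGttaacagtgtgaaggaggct
H2-Eb1: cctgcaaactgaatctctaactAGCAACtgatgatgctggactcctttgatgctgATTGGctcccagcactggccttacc
H2-DMb1: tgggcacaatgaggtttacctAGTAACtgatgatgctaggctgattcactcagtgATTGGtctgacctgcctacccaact
H2-DMb2: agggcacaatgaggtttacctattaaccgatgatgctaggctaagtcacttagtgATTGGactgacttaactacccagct
H2-Aa: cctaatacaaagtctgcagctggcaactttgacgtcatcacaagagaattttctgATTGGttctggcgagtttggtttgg

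These stretches lie at chr17:34092281-34092360 (H2-Oa), chr17:34238793-34238872 (H2-Ob), chr17:34305753-34305832 (H2-Eb1), chr17:34153075-34153154 (H2-DMb1), chr17:34145104-34145183 (H2-DMb2) and, on the minus strand, chr17:34287847-34287926 (H2-Aa), with the others on the plus strand. The X core began 31 to 34 bases before the Y core in the 4 pairs. H2-DMb1 and H2-DMb2, neighbours with near-copy sequences, were identical at 69 of the 80 bases (86.2%). Counted from 1 at the first letter of AGNAAC, the letters at the matching place of H2-DMb2 differed from the motif by G2T and those of H2-Aa by A1G, each 34 bases before ATTGG. Allowing 1 such difference, 15.2% of all promoters held a pair, so this looser match says little. H2-DMa had no pair in either of its 2 entries. A match describes letters and is not a shown binding site, and a missing match does not show that a box is absent.

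The genes themselves cluster in the MHC of chromosome 17 (GRCm38, the same build as mm10): H2-Oa at 34092340 to 34095234, H2-DMa at 34119541 to 34139101, H2-DMb2 at 34143307 to 34151555, H2-DMb1 at 34153072 to 34160230, H2-Ob at 34238903 to 34254414, H2-Ab1 at 34257689 to 34269419, H2-Aa at 34282744 to 34287823 and H2-Eb1 at 34305867 to 34316674. Ciita lies apart, on chromosome 16 at 10480059 to 10528418. The promoters were placed by RefSeq starts and these spans by another annotation. The H2-DMb1 and H2-DMb2 stretches therefore lie inside the spans given here, and that of H2-Oa lies partly inside. Some reads could belong to overlapping genes, since whether the counting used strand is not given in the sources used here: BC051537 overlaps H2-Oa, Gm20513 overlaps H2-Eb1, Brd2 overlaps H2-DMa and Dexi overlaps Ciita, each on the other strand. H2-DMb1 and H2-DMb2 could also share reads, so values of each are uncertain.

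Over all kept cells the coculture library held more transcripts of the presenting chains, of their regulator and of both H2-DO genes, and this did not extend to the whole pathway. Of the 10 genes, 7 were at least 2-fold higher in the coculture library, 0 at least 2-fold lower and 3 between, against 12.7% higher and 11.7% lower of the 8668 genes measured at 10 CPM (the gene's share of the summed UMIs, scaled to a total of 1000000) or more in either library. Their median log2 ratio was 1.97, beside 0.03 over all measured genes. H2-Aa reached 993 CPM (981 to 1004) in the library of cocultured cells and 258 CPM (252 to 264) without coculture, a log2 ratio of 1.94 (1.91 to 1.98). H2-Ab1 stood at 656 CPM in the coculture library and 234 CPM without coculture (1.49, 1.45 to 1.53). H2-Eb1, whose chain has no partner in this strain, stood at 673 and 124 CPM (2.44, 2.39 to 2.49).

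Ciita and the H2-DO genes had the highest ratios. Ciita stood at 35.5 CPM (1034 UMIs) in the coculture library and 4.71 CPM (131 UMIs) without coculture, a log2 ratio of 2.91 (2.65 to 3.19). H2-Oa stood at 115 CPM in the coculture library and 10.7 CPM without coculture (3.44, 3.26 to 3.61), and H2-Ob at 58.9 and 2.48 CPM (4.57, 4.22 to 4.94). Of the exchange genes, H2-DMb2 stood at 92.9 CPM in the coculture library and 23.3 CPM without coculture (1.99, 1.87 to 2.12). Its near copy H2-DMb1 stood at 85.5 and 95.2 CPM (-0.16), and their partner H2-DMa at 161 and 307 CPM (-0.93), although both signs turned, to 0.86 and 0.48, when the level was the mean of per-cell CPM. Cd74, which stood at 2808 CPM in the coculture library and 1946 CPM without coculture, differed by 0.53 (0.51 to 0.55).

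**Figure D1:**
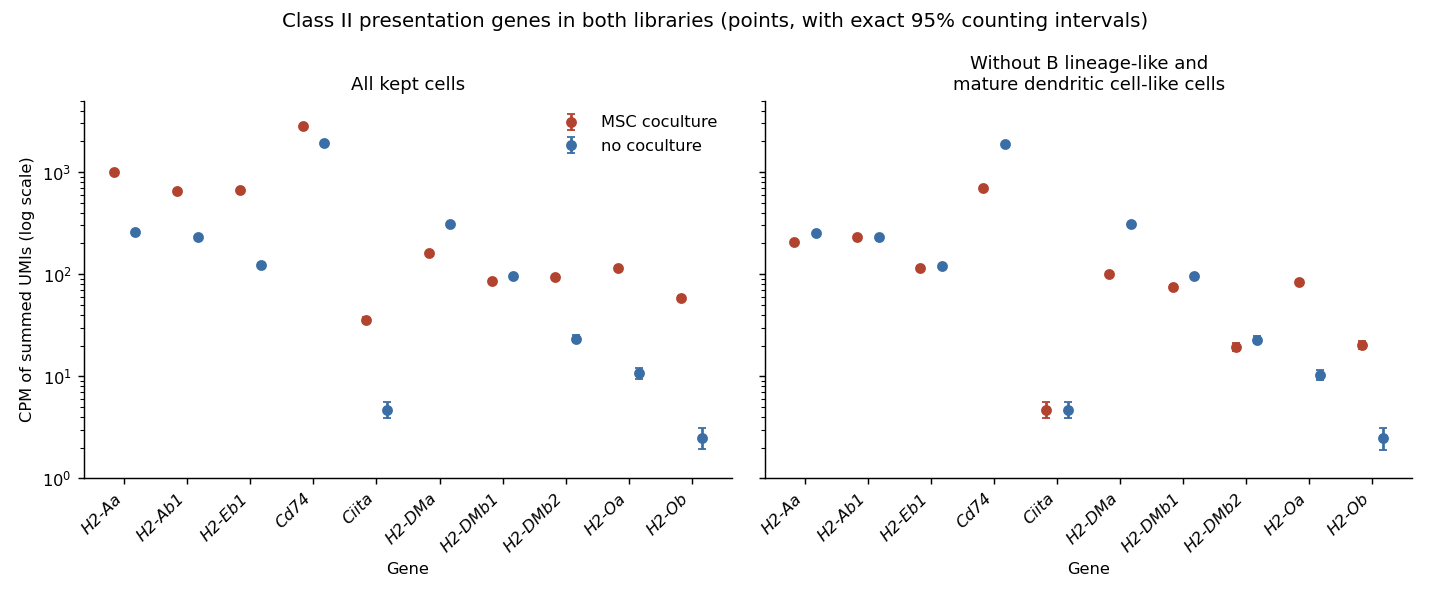
Levels of the 10 class II presentation genes as CPM of summed UMIs on a log axis, in the coculture library (red, left of each pair) and without coculture (blue), over all kept cells (left panel) and without B lineage-like and mature dendritic cell-like cells (right panel). Bars are exact 95% counting intervals of 1 library per group. In the left panel 8 of the red points lie above their blue partners, H2-DMa and H2-DMb1 excepted, while in the right panel H2-Aa, H2-Ab1, H2-Eb1 and Ciita lie close together in both libraries and the red points of H2-Oa and H2-Ob stay above.

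Different cells held these transcripts in the 2 libraries. In the coculture library B lineage-like cells held 49.99% of the UMIs of the 10 genes from 11.8% of all UMIs, and mature dendritic cell-like cells held a further 27.7% from 6.86%. Without coculture, macrophage-like cells held 70.1% from 64.8% of all UMIs, and cluster 7, an unnamed cluster present in both libraries, held 23.9% from 9.27%. Gene by gene, B lineage-like cells held 44.3% of the H2-Aa UMIs of the coculture library, 59.0% of those of Ciita and 65.9% of those of H2-Ob, but 15.7% of those of H2-DMb1. Fewer cells of a type and less RNA per cell cannot be told apart in these library sums. The gate genes differed between the same cells: Itgam, which encodes CD11b, stood at 3.20 CPM in B lineage-like and 22.6 CPM in mature dendritic cell-like cells of the coculture, against 389 CPM in macrophage-like cells without coculture, and the part of the gates in these shares was not tested.

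With B lineage-like and mature dendritic cell-like cells left out of both libraries (1802 cells of the coculture and 1812 without coculture remained), 9 genes were measured, of which 2 were at least 2-fold higher in the coculture library and 2 at least 2-fold lower, against 12.4% and 13.2% of all 8529 genes measured. This comparison was chosen after the cell makeup was known. H2-Aa then stood at 207 CPM in the coculture library and 251 CPM without coculture (log2 ratio -0.28), H2-Ab1 at 232 and 231 CPM (0.01), and H2-Eb1 at 116 and 120 CPM (-0.05). Ciita, with 4.69 CPM in the coculture library and 4.66 CPM without coculture, fell under the 10 CPM needed to be counted. The 2 genes still higher were H2-Oa, at 84.3 and 10.4 CPM (3.02), and H2-Ob, at 20.2 and 2.46 CPM (3.04). Cd74 stood at 703 CPM in the coculture library and 1893 CPM without coculture (-1.43), and H2-DMa at 100 and 308 CPM (-1.61).

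**Figure D2:**
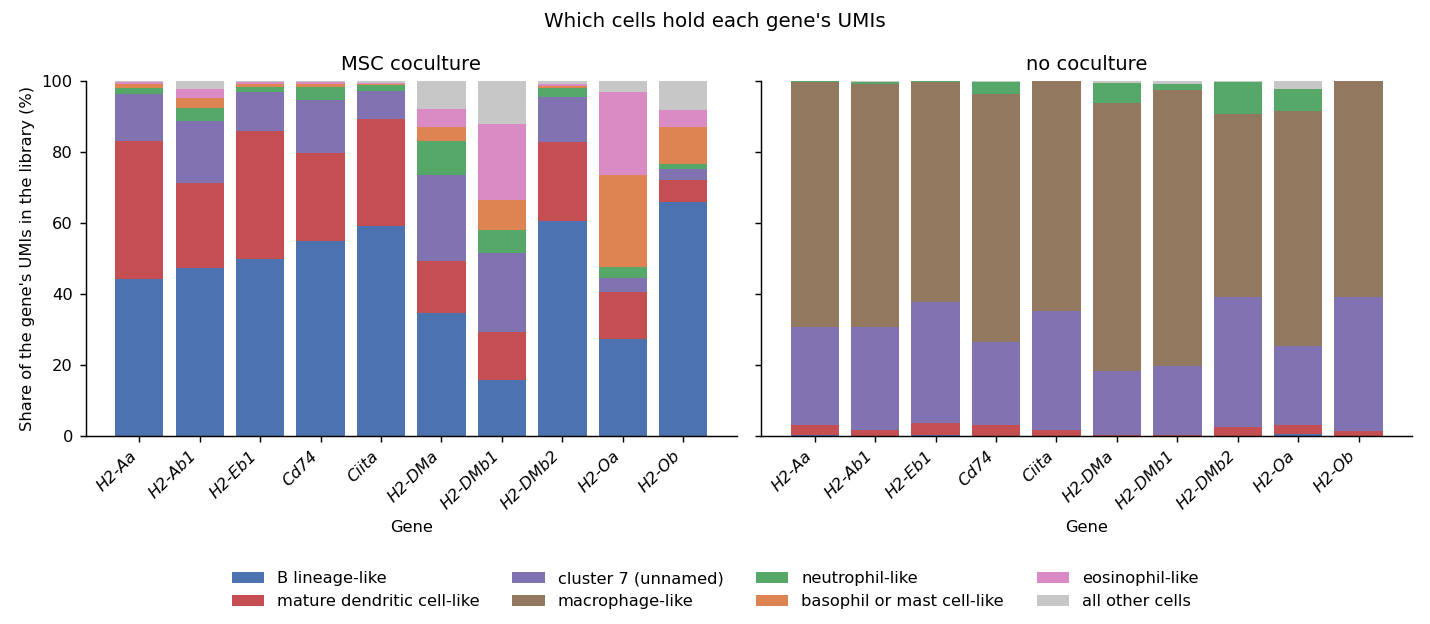
Share of each gene's UMIs, in percent of its UMIs in that library, that each cell class held, for the coculture library (left) and the library without coculture (right). Without coculture, macrophage-like cells and cluster 7 hold most of every gene. In the coculture library B lineage-like and mature dendritic cell-like cells hold most of 7 genes, while H2-DMa, H2-DMb1 and H2-Oa are spread over more classes.

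Among clusters with at least 20 cells, the highest chain levels of the coculture library were in B lineage-like clusters 10 and 4 and mature dendritic cell-like cluster 5. Cluster 10, the B lineage-like cluster led by Ighd and Bank1 (590 cells), had 5265 CPM of H2-Aa, 3711 CPM of H2-Ab1, 3899 CPM of H2-Eb1 and 18032 CPM of Cd74. Cluster 4, led by Ly6d and Iglc3 (279 cells), had 2796 CPM of H2-Aa, and cluster 12, led by Shisa8 and Tnfrsf13c (42 cells), had 783 CPM, below the 2257 CPM of unnamed cluster 7. Mature dendritic cell-like cluster 5 (292 cells) had 5611 CPM of H2-Aa (5507 to 5716), above cluster 10 (5157 to 5374) by more than counting error. The other chains and Cd74 were lower in cluster 5 than in cluster 10. Cd74 stood at 10181 CPM in cluster 5. Without the top 10% of cells by summed UMIs of the 3 chains, H2-Ab1 stood at 1964 CPM in cluster 5 and 3474 CPM in cluster 10. H2-Eb1 then stood at 3026 and 3720 CPM, and H2-Aa at 5024 and 5003 CPM. Ciita stood at 267 CPM in cluster 10, 157 CPM in cluster 5, 106 CPM in cluster 4, 47.8 CPM in cluster 7 and 44.4 CPM in cluster 12. No replicate of any cluster was available, so the order describes these libraries.

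Presenting cell types used the pathway in different proportions. H2-Oa and H2-Ob form 1 heterodimer, and their UMI ratio was 0.808 in B lineage-like cells, near 1 in each B cluster (0.798 in cluster 10, 0.789 in cluster 4 and 1.03 in cluster 12). In mature dendritic cell-like cells the ratio was 4.19, with H2-Oa at 224 CPM and H2-Ob at 53.6 CPM. The DMb pair split likewise: UMIs of H2-DMb2 per UMI of H2-DMb1 numbered 4.20 in B lineage-like cells, 1.80 in mature dendritic cell-like cells, 0.615 in cluster 7 of the coculture and 0.460 in cluster 7 without coculture, and 0.162 in macrophage-like cells. These are the near-copy genes whose promoter stretches are shown above. For each UMI of H2-Aa there were 1.81 of Cd74 in mature dendritic cell-like cells, 3.50 in B lineage-like cells and 7.61 in macrophage-like cells.

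**Figure D3:**
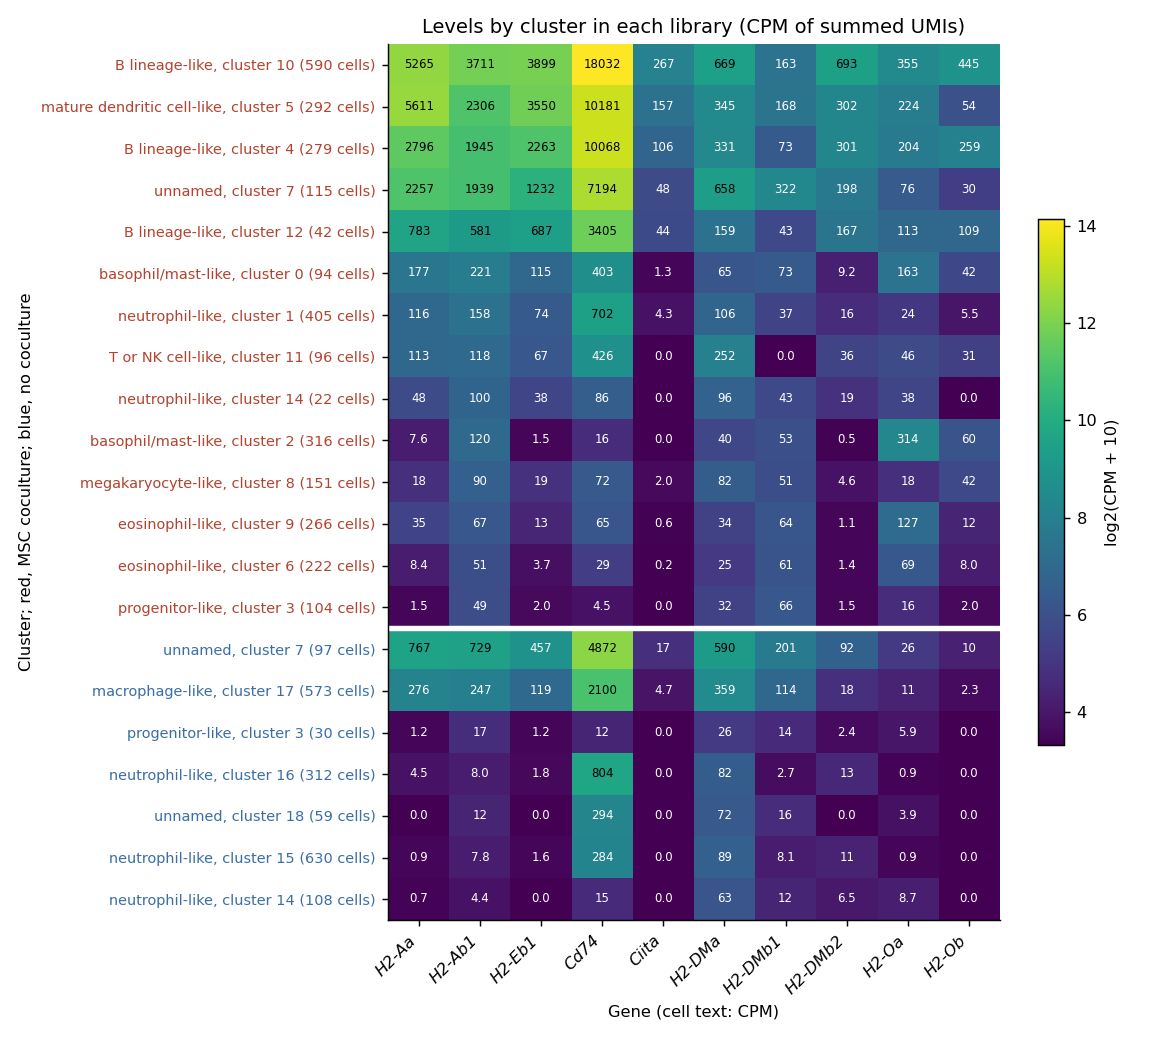
Levels of the 10 genes in each cluster with at least 20 cells of a library, as log2(CPM + 10) by colour with the CPM printed in each field, for coculture clusters (red labels, above the white line) and clusters without coculture (blue labels, below it), each sorted by the summed CPM of H2-Aa, H2-Ab1 and H2-Eb1. The 5 top coculture rows carry all 10 genes, basophil or mast cell-like cluster 2 carries H2-Oa with little H2-Aa, and neutrophil-like clusters 15 and 16 carry Cd74 with little H2-Aa.

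To compare single cells across depths, each cell was thinned to 2000 UMIs, leaving out 265 shallower cells of the coculture library and 140 without coculture. A UMI of all 3 chain genes was then found in 35.5% (33.7 to 37.3%) of coculture cells and in 3.04% (2.27 to 3.98%) of cells without coculture. The share was 97.6% in B lineage-like cluster 10, 77.3% in cluster 4, 23.8% in cluster 12 and 78.6% in mature dendritic cell-like cells. In macrophage-like cells without coculture it was 6.19% (4.35 to 8.51%), although these cells were deep, with a median of 25286 UMIs before thinning. As a yardstick for free RNA, progenitor-like cells of the coculture, which are not presenting cells, had all 3 chains in 0 of 104 (up to 2.88%). Their median was 19104 UMIs, against 2872 UMIs in B lineage-like and 6575.5 UMIs in mature dendritic cell-like cells. They therefore set no bound on free RNA in the shallower cells. T or NK cell-like cells of the coculture, at a median of 1897 UMIs, had all 3 chains in 2 of 41 (4.88%, 0.596 to 16.5%).

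The level per cell was more even in B lineage-like cluster 10 than in the other B lineage-like cells or in macrophage-like cells. Chain UMIs (H2-Aa, H2-Ab1 and H2-Eb1 together) per 10000 UMIs had a median of 133 in cluster 10, with 70.7 at the 10th and 187 at the 90th percentile of cells. Over the same percentiles the range was 0 to 151 in cluster 4 and 14.8 to 182 over all B lineage-like cells. Mature dendritic cell-like cells had a median of 105 (11.3 to 202 over the same percentiles). Macrophage-like cells had a median of 0.659 and a 90th percentile of 17.3, with a maximum of 121. The top 10% of cells held 21.6% of the H2-Aa UMIs of cluster 10 and 64.3% of those of macrophage-like cells, most of which held few chain transcripts. The same macrophage-like cells held Cd74 more widely, with a UMI in 70.4% of thinned cells, against 21.9% for H2-Aa and 0.708% for Ciita.

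**Figure D4:**
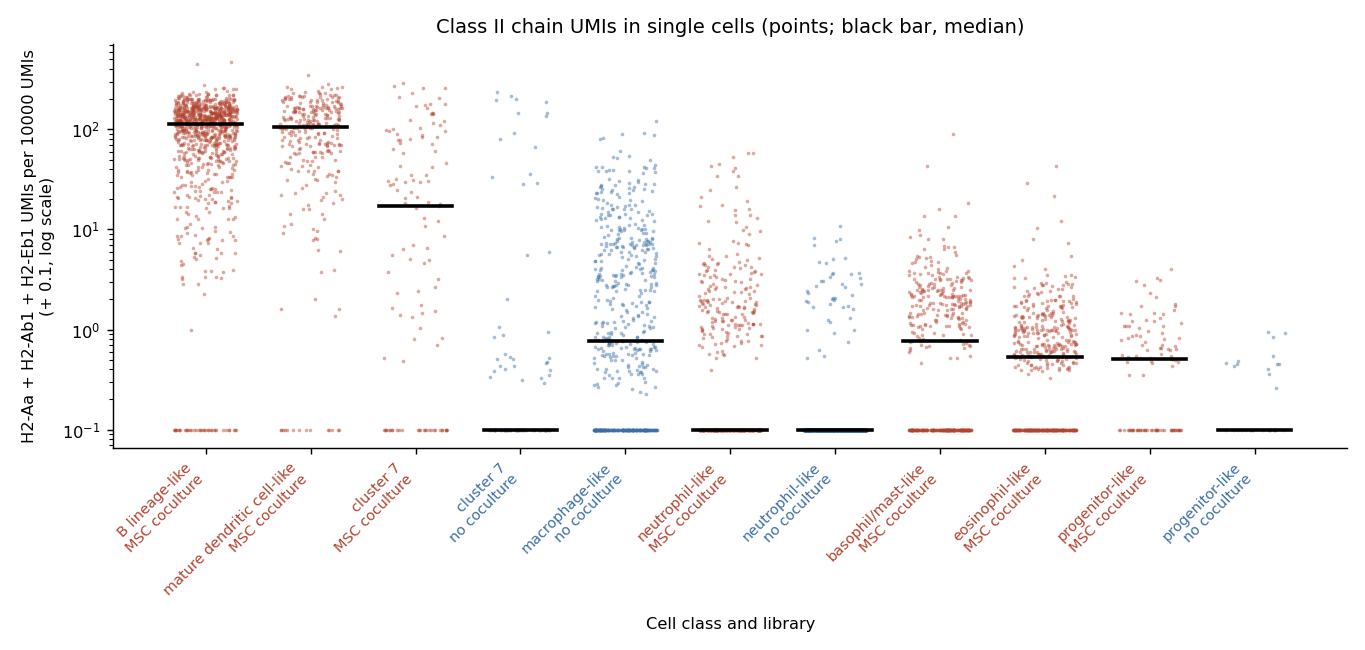
UMIs of H2-Aa, H2-Ab1 and H2-Eb1 together per 10000 UMIs in single cells (points, 0.1 added, log axis) of 11 combinations of class and library, coculture in red and no coculture in blue, with the median as a black bar. B lineage-like and mature dendritic cell-like cells sit near 100, cluster 7 without coculture splits into a few cells of that level and many near 0, and macrophage-like cells spread over the whole range.

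Cluster 7 had the highest chain levels of the clusters with at least 20 cells of each library (115 coculture cells and 97 without coculture, with medians of 13830 and 25801 UMIs). It was led by Igha, Asgr2, Ptx3, C1qa, Ccl17, Ccl24 and Mgl2, and held as many B lineage as dendritic cell markers among its 10 leading genes, so it stayed unnamed. Of the 10 genes, 7 were at least 2-fold higher in its coculture cells, 0 lower and 3 between, against 12.6% higher and 9.35% lower of 8106 genes, and their median log2 ratio was 1.42 beside 0.00. H2-Aa stood at 2257 CPM in coculture cells and 767 CPM in cells without coculture (1.56, 1.48 to 1.64), Ciita at 47.8 and 17.1 CPM (1.48, 0.94 to 2.05) and H2-DMb2 at 198 and 92.4 CPM (1.10). Cd74, at 7194 and 4872 CPM (0.56), H2-DMa, at 658 and 590 CPM (0.16), and H2-DMb1, at 322 and 201 CPM (0.68), lay between.

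These cluster 7 averages hide how few cells carried the chains without coculture. All 3 chains were found in 47.5% (37.5 to 57.7%) of its thinned coculture cells and 14.4% (7.92 to 23.4%) of those without coculture. Without coculture, 4 cells held at least 50% of its H2-Aa UMIs and the top 10% of cells held 88.6%, against 15 cells and 40.2% in the coculture. Without the top 10% of cells by chain UMIs, H2-Aa stood at 1558 CPM in the coculture and 97.4 CPM without it. Those top cells, chosen for their chain UMIs, held 17417 CPM of them in 11 coculture cells and 16669 CPM in 9 cells without coculture. Summed over the 10 dendritic cell markers, the top coculture cells had 2424 CPM (4 markers at 0), against 1402 CPM (1 at 0) in the remaining cells. Without coculture the sums were 7285 CPM (1 at 0) and 2995 CPM (4 at 0). Summed over the 14 macrophage markers, top cells had 9059 CPM against 9513 CPM in the coculture, and 9196 against 11637 CPM without coculture. Summed over the 19 B lineage markers, top cells had 673 CPM (13 at 0) against 3835 CPM (4 at 0) in the coculture. Without coculture these sums were 328 CPM (15 at 0) and 383 CPM (14 at 0). The cluster is a mixture by library: under a stricter filter it split into a C1qa-led, macrophage-like cluster of 136 coculture cells and 0 others, and a Ccl17-led unnamed one of 3 coculture cells and 83 without coculture. Different cells in each library and a different level in like cells cannot be told apart here.

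Neutrophil-like cells, which are not classical presenting cells, were numerous in both libraries but came from different clusters: 405 of the 429 coculture cells were in cluster 1, led by Arg1, while clusters 14 (108 cells), 15 (630 cells) and 16 (312 cells) held nearly all of the 1052 without coculture. Of 8 genes measured, 6 were at least 2-fold higher in the coculture cells and 0 lower, against 10.3% and 7.38% of 7625 genes. H2-Aa stood at 113 CPM in coculture cells and 1.57 CPM (9 UMIs) in cells without coculture, and H2-Ab1 at 155 and 6.99 CPM. Few cells carried this: 6 of the 405 cells of cluster 1 held at least 50% of its H2-Aa UMIs, all 3 chains were found in 2.23% of thinned coculture cells (1.03 to 4.20%) and 0 of 931 without coculture (up to 0.322%).

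Other cell types' markers moved with those cells. The top 10% of coculture neutrophil-like cells by chain UMIs (42 cells) had a median of 18621 UMIs, against 7107 in the remaining 387, and held 108 UMIs of the B cell gene Cd79a and 56 of the mature dendritic cell gene Ccr7, against 9 and 3. Summed over all 19 B lineage markers the top cells had 1270 CPM (3 markers at 0), against 517 CPM (1 at 0) in the rest, and over the 9 mature dendritic cell markers 276 CPM (0 at 0), against 97.8 CPM (2 at 0). Doublets had not been called, and their part in this result was not tested. With the top 10% left out of each library, an alternative added after seeing the data, Cd74 stood at 291 CPM in coculture cells and 304 CPM in cells without coculture. H2-Aa then stood at 5.95 CPM in coculture cells and at 0 CPM without coculture, where the step removed every cell with a chain UMI.

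Progenitor-like cluster 3, led by Elane, Prtn3 and Mpo, held few transcripts of H2-Aa and H2-Eb1. Its 104 coculture cells held 3 UMIs of H2-Aa, 4 of H2-Eb1 and 0 of Ciita, and the 30 cells without coculture held 1, 1 and 0. Of 5 genes measured there, 3 were at least 2-fold higher in coculture cells (H2-Ab1, H2-DMb1 and H2-Oa) and 1 lower (Cd74), against 16.7% and 7.52% of 7509 genes. H2-DMb1 stood at 66.4 CPM in coculture cells and 14.2 CPM in cells without coculture (log2 ratio 2.22, 1.37 to 3.21). The Cd74 difference rested on 9 and 10 UMIs, and its interval (-2.89 to 0.04) reached 0.

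H2-Oa left the Ciita pattern in basophil or mast cell-like and eosinophil-like cells. Basophil or mast cell-like cluster 2 (316 cells, led by Tpsb2, Akr1c18 and Mcpt8) had 314 CPM of H2-Oa (289 to 339), close to the 355 CPM of B lineage-like cluster 10, with 0 Ciita UMIs (up to 1.52 CPM) and 7.60 CPM of H2-Aa. In thinned cells, 46.9% of cluster 2 had an H2-Oa UMI, against 50.7% of cluster 10 and 4.81% of progenitor-like cells (medians of 5561.5, 2651.5 and 19104 UMIs). The level of cluster 2 was spread over cells, with 27.6% of H2-Oa UMIs in the top 10% of cells. The other basophil or mast cell-like cluster, cluster 0 (94 cells, led by Mcpt8 and Gzmb), had less H2-Oa. Without its top 10% of cells by chain UMIs, H2-Oa stood there at 170 CPM and H2-Aa at 6.29 CPM, against 316 and 4.54 CPM in cluster 2. The 9 top cells of cluster 0 held 2685 CPM of chain UMIs. Eosinophil-like cells had 127 CPM in cluster 9 and 68.7 CPM in cluster 6, with H2-Aa at 35.04 and 8.44 CPM.

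The transcripts of these granulocytes were not in the proportions of the presenting cells. Per UMI of H2-DMa there were 7.94 of H2-Oa in cluster 2, 2.49 in cluster 0 and 3.24 in eosinophil-like cells. There were 0.531 in cluster 10 and 0.651 in mature dendritic cell-like cells. The H2-DO partner H2-Ob was lower beside H2-Oa, at 60.3 CPM in cluster 2 (5.20 H2-Oa UMIs per UMI), 11.8 CPM in cluster 9 (10.8) and 8.04 CPM in cluster 6 (8.54). The antisense neighbour BC051537 had 0 UMIs in basophil or mast cell-like and in eosinophil-like cells. Both classes together held 49.4% of the H2-Oa UMIs of the coculture library, more than B lineage-like cells (27.2%), and megakaryocyte or platelet-like cells showed the opposite imbalance, with 42.2 CPM of H2-Ob and 18.0 CPM of H2-Oa. Without coculture, H2-Oa stood at 10.9 CPM in macrophage-like cells and at 0.894 to 8.73 CPM in the 3 neutrophil-like clusters, and no basophil or mast cell-like or eosinophil-like cell was present to compare.

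**Figure D5:**
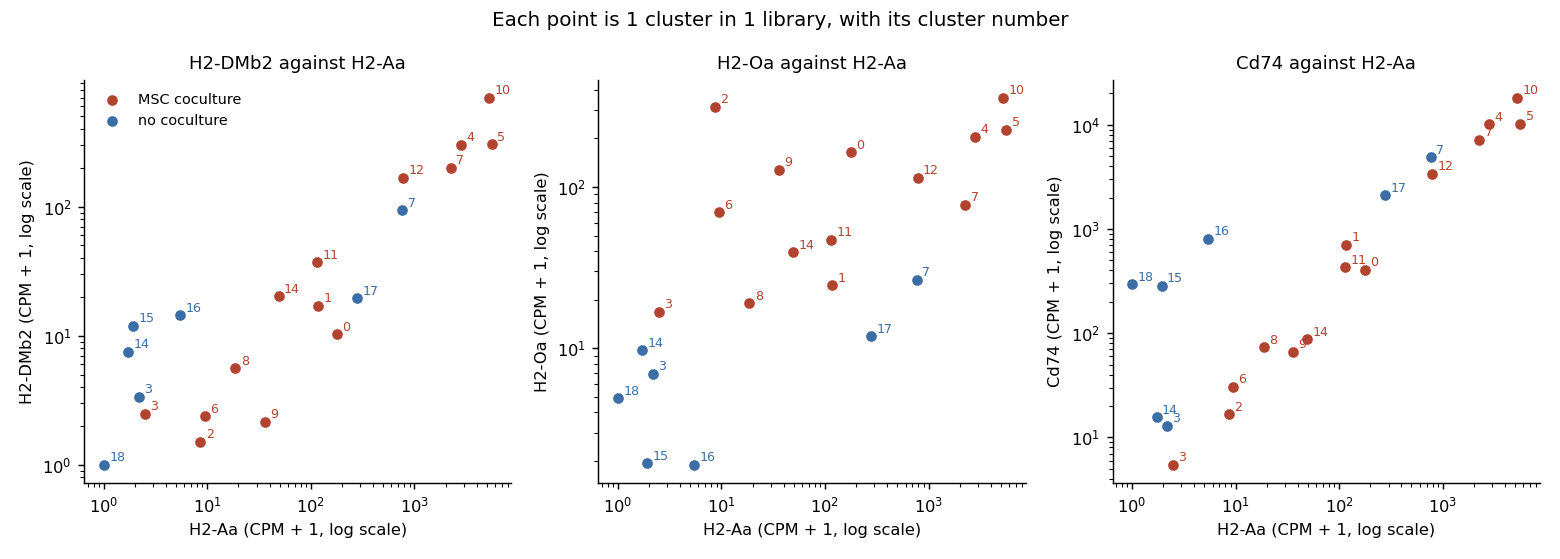
CPM of H2-DMb2 (left), H2-Oa (middle) and Cd74 (right) against H2-Aa, with 1 added, on log axes. Each point is 1 cluster in 1 library (coculture red, no coculture blue) with its number. H2-DMb2 rises with H2-Aa, the coculture clusters 2, 6 and 9 lie high in H2-Oa at low H2-Aa, and clusters 15, 16 and 18 without coculture lie high in Cd74 at low H2-Aa.

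Cd74, the invariant chain (chromosome 18, 60803848 to 60812652 in GRCm38), was found at low H2-Aa in neutrophil-like cells of both libraries. In the coculture, eosinophil-like cluster 6 had 29.4 CPM and basophil or mast cell-like cluster 2 had 15.7 CPM of Cd74. Neutrophil-like cluster 1 of the coculture, without its top 10% of cells by chain UMIs, had 314 CPM of Cd74. Those cells had 7.55 CPM of H2-Aa and 62.9 CPM of H2-Ab1. Without coculture, neutrophil-like cluster 16 had 804 CPM of Cd74 (752 to 858) and cluster 15 had 284 CPM (266 to 304), with 4.47 and 0.934 CPM of H2-Aa and 0 UMIs of Ciita in both (up to 2.68 and 0.934 CPM, the level of 3 UMIs). A Cd74 UMI was found in 59.6% of thinned cells of cluster 16 and 23.5% of cluster 15, against 2.86% of neutrophil-like cluster 14 (14.5 CPM), at medians of 3327, 4670 and 12229.5 UMIs. Unnamed cluster 18, led by Gdf15 and Ccl4, had 294 CPM of Cd74 with 0 UMIs of H2-Aa, H2-Eb1 and Ciita (up to 5.84 CPM each). Macrophage-like cells, the most abundant source without coculture, had 2100 CPM, and the part of their free RNA in these values was not tested.

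H2-DMa, H2-DMb1 and H2-Ab1 were also found in clusters where few cells had an H2-Aa UMI and H2-DMb2 was low. H2-DMb1 stood at 51.3 to 73.1 CPM in the basophil or mast cell-like, eosinophil-like, megakaryocyte or platelet-like and progenitor-like clusters of the coculture, where H2-DMb2 stood at 0.507 to 9.22 CPM. Within eosinophil-like cells this was 0.0207 UMIs of H2-DMb2 per UMI of H2-DMb1, against 4.20 in B lineage-like cells. An H2-DMb1 UMI was found in 8.51 to 12.3% of thinned cells of these 6 clusters, against 22.9% of B lineage-like cells. H2-DMa stood between 24.9 and 82.1 CPM in the same clusters. H2-Ab1 stood at 120 CPM in basophil or mast cell-like cluster 2, which is 15.7 H2-Ab1 UMIs per UMI of H2-Aa, against 0.705 in B lineage-like cluster 10, and at 49.1 CPM in progenitor-like cells with 1.49 CPM of H2-Aa. An H2-Ab1 UMI was found in 11.5 to 24.5% of thinned cells of the 6 clusters and an H2-Aa UMI in 0 to 4.26%. The like low shares of H2-DMb1 and H2-Ab1 over these clusters could hold free RNA, whose part was not tested. Without the top 10% of cells by chain UMIs, H2-Ab1 stood at 76.7 CPM in cluster 2 and H2-Aa at 4.54 CPM.

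Across the 21 combinations of cluster and library with at least 20 cells, Pearson's r of log2(CPM + 10) with Ciita described how far each gene followed its regulator. The combinations share libraries, depth within a library and a clustering of the same cells, so no p is given. The coefficient was 0.95 for H2-DMb2, 0.93 for H2-Eb1, 0.90 for H2-Aa, 0.88 for H2-Ab1 and 0.82 for Cd74. It was 0.78 for H2-Ob and 0.74 for H2-DMa, and lowest for H2-Oa (0.62) and H2-DMb1 (0.61). Of the promoters searched, those of H2-Eb1, H2-Ob, H2-Oa and H2-DMb1 held the ordered X and Y pair by exact letters. Those of H2-DMb2 and H2-Aa differed from the X core by 1 letter, 34 bases before ATTGG, and H2-DMa had no pair. A search for exact letters cannot show that a promoter lacks an X box. The part of the promoters in these coefficients was not tested.

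By the same measure, the genes outside the set most like its mean profile were, among 5985 genes reaching 50 CPM somewhere, Pxdc1 and Ly86 (both 0.93), Irf8 (0.92), Gpr183 (0.91), Plekho1 and Sdc4 (both 0.87), and Pltp, Zfp318, Kmo and Il4i1 (all 0.85). Irf8 is a transcription factor of myeloid and B cells, Ly86 encodes the partner of the Toll-like receptor relative RP105, and Gpr183 is a receptor that positions B cells and dendritic cells. Irf8 and Il4i1 reached their highest levels in mature dendritic cell-like cells, at 2136 and 1199 CPM, while Pxdc1 and Gpr183 did so in cluster 10. Likeness here is a description of levels over these clusters.

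The wider pathway list held genes with ratios in both directions. Of 36 listed genes 31 were measured over all cells, of which 6 were at least 2-fold higher in the coculture library, 10 lower and 15 between, against 12.7% higher and 11.7% lower of all genes measured, and the median log2 ratio was -0.20, beside 0.03. The 2 highest were Pax5, the B cell factor that acts on a Ciita promoter, at 37.3 CPM in the coculture library and 0.0360 CPM without coculture, and Cd83, which keeps class II at the surface by opposing its ubiquitin ligase, at 116 and 3.46 CPM. The 2 lowest were the lysosomal proteases Ctss, which trims the invariant chain, at 216 and 2049 CPM (-3.25), and Ctsb, at 149 and 920 CPM (-2.63). Of 9 genes of proteolysis and reduction, 0 were higher and 5 lower (Ctss, Ctsb, Ctsd, Ctsz and Lgmn). Among classes with at least 20 cells, Ctss was highest in macrophage-like cells without coculture, at 2996 CPM. Ctsb, Ctsd and Lgmn were highest in unnamed cluster 18 without coculture, at 2642, 6276 and 345 CPM. Ctsz was highest in cluster 7 without coculture, at 1130 CPM. Of the 7 promoter factors, Nfyb, a subunit of the Y box factor, was higher (1.03) and 6 lay between (Rfx5, Rfxap, Rfxank, Nfya, Nfyc and Creb1), with a median of 0.06.

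In neutrophil-like cells 30 of its genes were measured, of which 8 were at least 2-fold higher in the coculture cells (Ctss, Ctsl, March1, Irf8, Prdm1, Mif, Cd80 and Cd86) and 0 lower, against 10.3% and 7.38% of all genes, with a median log2 ratio of 0.31. These cells came from different clusters in each library. The coculture sums include the top cells by chain UMIs, which also held more B lineage and mature dendritic cell marker UMIs. The part of those cells in these ratios was not tested. In cluster 7, 29 were measured, of which 9 were higher and 2 lower, against 12.6% and 9.35% of all genes, with a median of 0.31. There the thiol reductase Ifi30 stood at 878 CPM in coculture cells and 174 CPM in cells without coculture, and the costimulator Cd86 at 176 and 33.8 CPM, while Ctsb stood at 235 and 622 CPM. In progenitor-like cells 21 were measured, of which 2 were higher and 1 lower, against 16.7% and 7.52% of all genes, with a median of 0.13 beside 0.23.

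The remaining class II loci marked the strain and the B lineage. H2-Ea-ps, the broken alpha chain gene of H-2b mice (chromosome 17, 34341959 to 34344645), had 0 UMIs in both libraries, which allows up to 0.103 CPM in the coculture and 0.108 CPM without it. H2-Eb2, a second beta chain gene (34325665 to 34341412), had 259 UMIs in the coculture library and 3 without coculture. Of the 259 UMIs, 92.7% were in B lineage-like cells (69.8 CPM) and 5.79% in mature dendritic cell-like cells (7.52 CPM), where H2-Aa stood at 5611 CPM. Gm20513, the antisense neighbour of H2-Eb1, stood at 6.69 CPM in B lineage-like cells, far below H2-Eb1 at 2836 CPM.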

How the data were processed

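The authors deposited raw UMI counts for each gene in each barcode, not normalized. Counts were made with Cell Ranger and bcl2fastq against mm10, per the submitters' processing notes, with software version 3.1.0 per the file headers, from 3' libraries per the labels' protocols. The annotation release and the way cells were called are not given here. Of 47729 gene identifiers, 47224 were in GENCODE M21, which gave positions.

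Members and lists were chosen with earlier results of these data known. Cells passing the filter were clustered together (scanpy 1.11.5, scikit-learn 1.9.0, igraph 0.11.9: counts scaled to 10000, 2000 variable genes without 12 class II genes, 30 principal components, 15 neighbours, Leiden resolution 0.8) and named from 15 marker sets by mean fold, with at least 3 markers 2-fold higher. That naming rule was set with the data in view. Doublets were not called or removed. UMIs were summed per library or cluster as CPM with exact Poisson intervals, ratios took exact conditional binomial intervals, and shares exact Clopper-Pearson intervals. A count of 0 took a floor of 3 counts. Named genes were the 10 members, a fixed list of 36 pathway genes, of which the 2 highest and 2 lowest and the roles described are named, and the 10 genes most like the members. Alternatives, including edgeR 4.0.16 TMM and DESeq2 1.42.0 size factors, were recomputed, and the ratio and interval code was tested on simulated data.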

Additional observations from a re-analysis of the deposited data

Results flagged for a closer look

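Barcodes outside the filter also carried class II transcripts. The 10 genes summed to 9559 CPM (9031 to 10110) over the 129 barcodes left out of the coculture library, above the 1125 CPM (1035 to 1221) over the 363 left out without coculture. The comparisons above leave these barcodes out. With all deposited barcodes included, 7 of the 10 genes were at least 2-fold higher in the coculture library and 0 lower, with a median log2 ratio of 1.99.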

How the results depend on the processing

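No paired analysis was possible because each group has 1 library. The count of 7 higher genes was 8 as the mean of per-cell CPM and 6 at a minimum of 50 CPM. It was 5 without B lineage-like cells, where H2-Ab1 (0.75) and H2-DMb2 (0.83) fell under 2-fold. It was 2 without B lineage-like and mature dendritic cell-like cells, an alternative chosen after seeing the data. The count of lower genes, 0 as reported, was 1 with TMM or DESeq2 scaling and 1 without B lineage-like cells, each time H2-DMa, and 2 without both classes. The median log2 ratio of 1.97 was 1.83 with TMM, 1.84 with DESeq2, 2.25 without the 5% of cells with most UMIs, 3.80 as the mean of per-cell CPM, 1.06 without B lineage-like cells, where Cd74 changed sign (-0.43), and -0.14 without both classes, where Cd74 (-1.43), H2-Aa (-0.28), H2-Eb1 (-0.050) and H2-DMb2 (-0.23) did. TMM and DESeq2 moved the median of all genes to -0.13 and -0.11. Of the pathway genes, 6 higher as reported, 10 were higher as the mean of per-cell CPM, 10 with no minimum and 2 without both classes, and 5 were lower as the mean of per-cell CPM. The B lineage-like share of 49.99% was 48.4% under the stricter filter and 52.3% without the deepest 5% of cells. The macrophage-like share of 70.1% was 74.9% with class II genes among the clustering genes, 69.5% at resolution 0.4, 68.0% at resolution 1.2, 55.6% under the stricter filter and 60.4% without the deepest 5%. Under the stricter filter a Wfdc17-led cluster of 104 cells without coculture, nearest to the macrophage markers, stayed unnamed and so lay outside the 55.6%. The causes of these shifts were not tested.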
